A study of Mus musculus with 12 samples.

Results

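The genes described here carry pyruvate into the mitochondrial matrix, convert it to acetyl-CoA or oxaloacetate, and turn the tricarboxylic acid (TCA) cycle. They were taken by symbol from a list of 32 genes, and all 32 were found among the 24341 rows of the deposited gene table. The list holds 2 subunits of the mitochondrial pyruvate carrier, 5 genes of the pyruvate dehydrogenase complex, 4 kinases and 2 phosphatases that act on that complex, 1 pyruvate carboxylase and 18 genes of cycle enzymes and their cytosolic counterparts. The rule uses no measured value, although the genes were chosen with earlier results of these data known. Each of the 32 genes had at least 2.91 FPKM in every library, so none entered the tests through a single group.

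RNA was sequenced from 12 libraries of SV40-immortalised C57Bl/6 mouse preadipocytes, cells that can be induced to form adipocytes in culture, in 4 groups of 3. Aclyf/f cells, with floxed Acly alleles, and Acly-/- cells, labelled as lacking the gene, were each sampled as preadipocytes on day 0 and as adipocytes on day 4 after an adipogenic cocktail containing rosiglitazone, a PPARgamma agonist. Immortalisation, strain and medium, apart from the cocktail, were common to all 4 groups, and both adipocyte groups received the agonist. Stage, days in culture and the cocktail change together between day 0 and day 4, so the stage comparisons cannot tell them apart. The sources used here do not say how Acly was deleted or whether replicates came from separate cultures, so the p-values measure only the spread between these libraries. Acly encodes ATP-citrate lyase, which cleaves citrate exported from mitochondria into cytosolic acetyl-CoA and oxaloacetate.

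Pyruvate made by glycolysis crosses the inner mitochondrial membrane through the carrier and has 2 main fates in the matrix. The pyruvate dehydrogenase complex decarboxylates it to acetyl-CoA, a step that kinases switch off by phosphorylation and phosphatases switch on again, while pyruvate carboxylase adds a carbon to give oxaloacetate. Citrate synthase joins both products, and in adipocytes much of the citrate leaves the mitochondrion to supply fatty acid synthesis, with pyruvate carboxylase replacing the oxaloacetate that is drawn off.

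Values are FPKM, fragment counts scaled by transcript length and library size, a unit that allows levels of different genes to be set side by side. Library depth, read from the smallest value steps of the table, spanned a factor of 1.93, from about 7110000 to 13700000 fragments. With each gene's longest GENCODE transcript as its length, Pdk2 had the fewest estimated fragments of the 32 genes. It then rested on about 68.9 fragments in its lowest library, an upper guide because of that length. By FPKM the lowest value was that of Pdp2, at 2.91. Replicate libraries correlated at 0.9861 to 0.9934 on the log2 scale, against 0.8191 to 0.9636 between groups. Acly itself stood at 86.9 ± 2.33 FPKM in Aclyf/f and 12.1 ± 0.309 in Acly-/- preadipocytes and at 754 ± 52.5 and 12.4 ± 1.17 in the adipocytes. It was thus low in all 6 libraries labelled Acly-/-, although the value covers the whole gene and the sources used here do not name the exons removed. The summed FPKM of 11 adipocyte markers ran from 1084 to 1151 in Aclyf/f and 649 to 709 in Acly-/- preadipocytes, and from 12555 to 13227 in Aclyf/f and 6934 to 8522 in Acly-/- adipocytes. In adipocytes 10 of the 11 were lower in Acly-/- cells (90.9%, against 29.2% of all genes tested), with Pparg at 161 ± 1.18 and 148 ± 13.7 FPKM not called. Of 6 preadipocyte markers, Pdgfra, Pdgfrb and Ly6a were higher in Acly-/- than in Aclyf/f adipocytes, as were 25.6% of all genes tested. Dlk1, Cd34 and Thy1 were too low to be tested. The sum of the 6 ran from 134 to 199 FPKM in Aclyf/f adipocytes and from 692 to 738 in Acly-/- adipocytes. The leukocyte markers Ptprc, Adgre1, Itgam and Cd3e were under 0.1 FPKM in every library, while Cd68, another of the 7, was at 32.6 ± 3.12 FPKM in Acly-/- adipocytes and at most 2.75 ± 0.718 in the other groups. Csf1r and Lyz2, also of the 7, were too low to be tested. Both reached 0.1 FPKM in some preadipocyte library of each genotype, and of them only Csf1r did so in adipocytes, in the Acly-/- group. In such bulk libraries, fewer cells of a type and less RNA per cell cannot be told apart, and the part of these marker differences in the results below was not tested.

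With Acly intact, nearly the whole set rose with differentiation. In Aclyf/f cells 30 of the 32 genes rose from day 0 to day 4, 1 fell, and 1 was not called, at a limma adjusted p under 0.05 over all 11777 genes tested, of which 72.5% were called (36.5% higher and 36% lower). The day 0 and day 4 libraries did not overlap for 31 of the 32, where 75.7% of all genes did not. The median change of the 32 was 1.40 on the log2(FPKM + 1) scale, against -0.0018 for all genes tested. Pcx, pyruvate carboxylase, rose 48.1-fold, Pdhb, the beta subunit of pyruvate dehydrogenase, 9.70-fold, Mdh1, cytosolic malate dehydrogenase, 5.62-fold, Mpc1, a carrier subunit, 5.61-fold, and Cs, citrate synthase, 5.32-fold. The exceptions were both regulators of pyruvate dehydrogenase, the kinase Pdk3, which fell, and the phosphatase Pdp1, which was not called.

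Without Acly the set also rose, by less. In Acly-/- cells 30 genes were higher and 2, Pdk1 and Pdk3, lower on day 4, against 61.4% called among all genes (30.4% higher and 31% lower), with a median change of 0.80 where that of all genes was 0.0037. No gene of the 32 had overlapping stages in Acly-/- cells, and 64.6% of all genes had none. The 2 genotypes share no library in these comparisons, so the difference between their changes could be tested for each gene. It was called for 24 of the 32, against 50.2% of all genes. The change was smaller or more negative in Acly-/- cells for 23 (26.4% of all genes) and larger for 1, Pdp1 (23.7%), with a median difference of -0.49 against -0.02. Among the 30 genes that rose in Aclyf/f cells, the gain in mean FPKM seen in Acly-/- cells was a median of 50.4% of that in Aclyf/f cells, from -48.1% for Pdk1, which fell, to 120.5% for Suclg2.

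**Figure D1:**
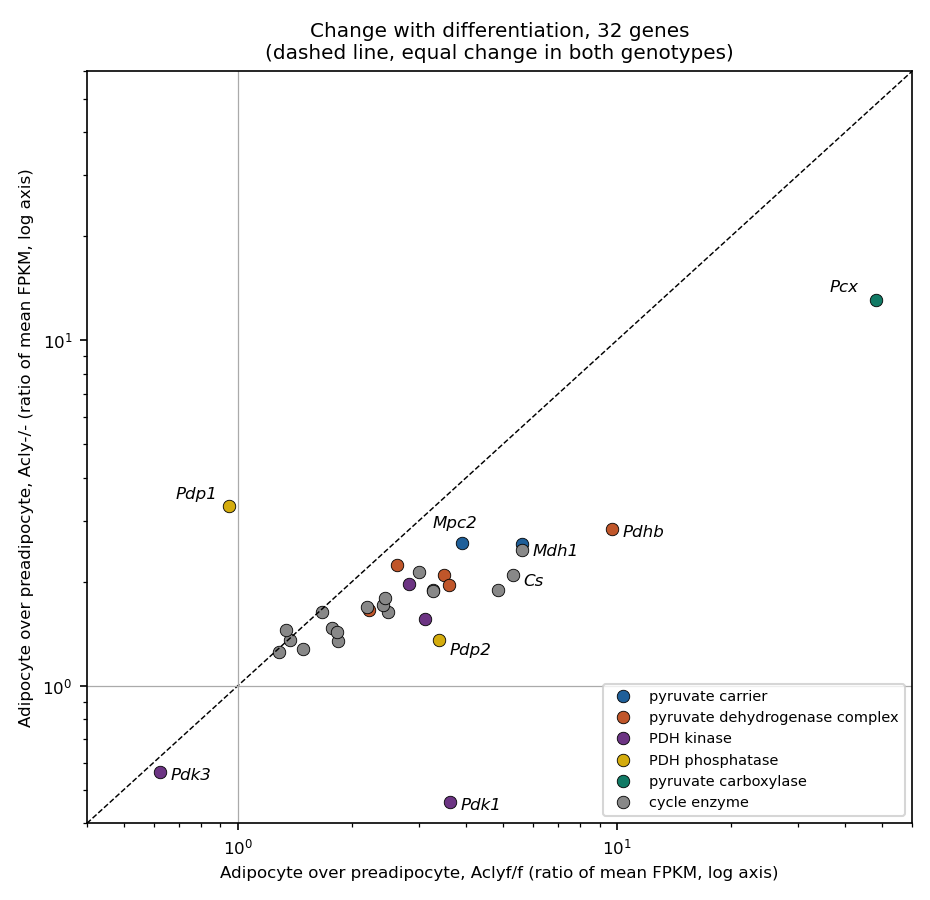
Ratio of mean FPKM in adipocytes to that in preadipocytes for each of the 32 genes, in Aclyf/f cells (horizontal, log axis) and in Acly-/- cells (vertical, log axis), 1 point per gene, coloured by role. Most points lie to the right of the dashed line of equal change, Pcx is farthest out at 48.1-fold and 13.1-fold, Pdp1 lies above the line and Pdk1 below 1 in Acly-/- cells.

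The genotype comparison at each stage, which uses the same 12 libraries as the comparisons above, called 9 of the 32 genes on day 0 and 27 on day 4. Day 0 held some of the larger differences, with log2 values of 1.18 for Pdk1, 1.07 for Pdk4, 0.59 for Pdp2 and -0.74 for Idh2. In preadipocytes 8 of the 32 genes were higher in Acly-/- cells, 1 was lower and 23 were not called, against 42.2% called among all genes (19.7% higher and 22.4% lower), and the median difference was 0.08 against -0.01. In adipocytes 25 were lower, 2 were higher and 5 were not called, against 54.8% called among all genes (29.2% lower and 25.6% higher), and the median was -0.49 against -0.02. The libraries of the 2 genotypes did not overlap for 15 of the 32 genes in preadipocytes, where 49.9% of all genes did not, and for 29 in adipocytes, where 63.2% did not. Rescaling every library to the same FPKM sum reduced the preadipocyte rises from 8 to 5, without Mdh1, Sdha and Sdhb, and raised the falls from 1 to 2, with Pdk2. It also moved the share of rises among all genes called from 46.8% to 34.7% in preadipocytes and from 46.7% to 36.4% in adipocytes. In Acly-/- preadipocyte replicate 3, whose FPKM summed to 608176 against at most 560172 in any other library, the small nucleolar RNA Snord12 alone reached 54145 FPKM. The summed FPKM of the 32 genes made up 0.296% ± 0.00692 (SD, n = 3) of all FPKM in preadipocytes and 0.987% ± 0.0165 in adipocytes with the Aclyf/f genotype, and 0.291% ± 0.0208 and 0.560% ± 0.00922 with the Acly-/- genotype.

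**Figure D2:**
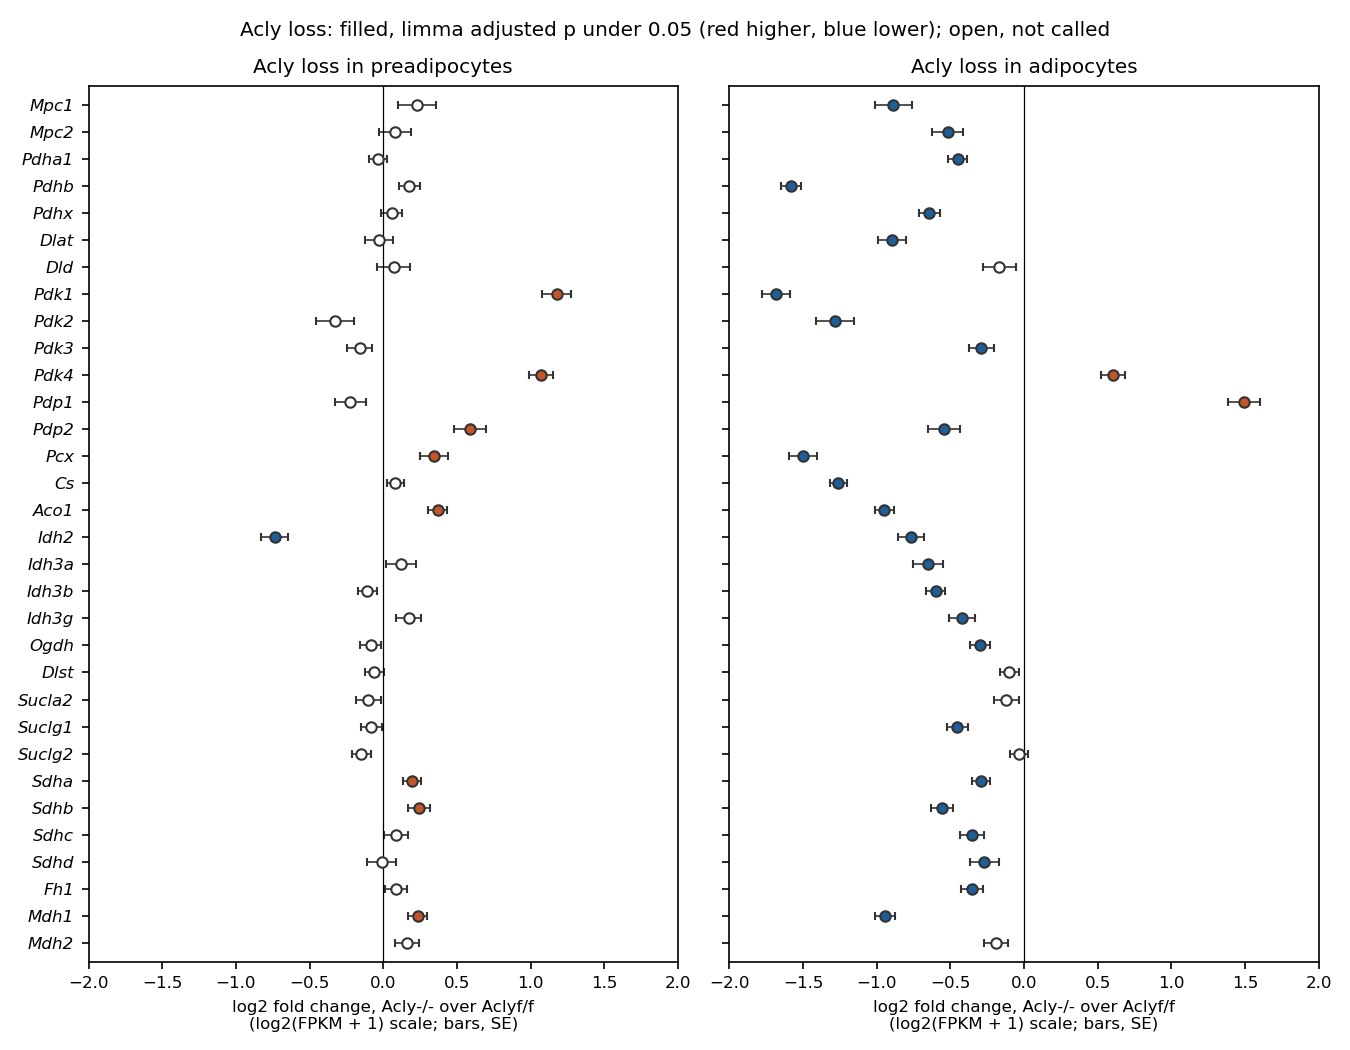
Difference between Acly-/- and Aclyf/f cells for each of the 32 genes, in preadipocytes (left) and adipocytes (right), as log2 fold change on the log2(FPKM + 1) scale with its standard error, filled where the limma adjusted p was under 0.05. In preadipocytes most points lie near 0, and in adipocytes 25 lie below 0 and are filled, with Pdk4 and Pdp1 filled above 0.

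The 2 carrier genes, whose products form the heterodimer that admits pyruvate to the matrix, rose in both genotypes and were lower in Acly-/- adipocytes. Among all genes tested, 36.5% rose in Aclyf/f and 30.4% in Acly-/- cells, and 29.2% were lower in Acly-/- adipocytes. Mpc1 stood at 27.2, 32.02 and 38.3 FPKM in the Aclyf/f preadipocyte libraries, 34.6, 43.7 and 36.2 in their Acly-/- counterparts, 157, 195 and 196 in the Aclyf/f adipocyte libraries and 106, 90.9 and 97.0 in those of Acly-/- adipocytes. Mpc2 stood at 43.9, 44.3 and 37.2 FPKM in the Aclyf/f preadipocyte libraries, 43.0, 43.4 and 45.9 in their Acly-/- counterparts, 176, 159.8 and 153 in the Aclyf/f adipocyte libraries and 109, 99.2 and 135 in those of Acly-/- adipocytes. All Acly-/- adipocyte libraries lay between the preadipocyte and the Aclyf/f adipocyte libraries for both genes. Mpc1 was 1.86-fold lower in Acly-/- adipocytes (log2 fold change -0.89 ± 0.13 SE, adjusted p = 5.52e-05) and Mpc2 1.43-fold (-0.52 ± 0.11, adjusted p = 0.00105). Neither was called in preadipocytes, where the 95% interval of the genotype difference ran from -0.04 to 0.50 for Mpc1 and from -0.15 to 0.31 for Mpc2. The deposited span of the Mpc1 row, 43.6 kb, exceeds the 13.9 kb of RefSeq, and 23.1% of its exon bases in the GENCODE annotation overlap an antisense transcript that reached at most 2.02 FPKM.

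The pyruvate dehydrogenase complex is built from the decarboxylase subunits Pdha1 and Pdhb, the acetyltransferase Dlat, the lipoamide dehydrogenase Dld and the binding protein Pdhx. All 5 genes rose with differentiation in both genotypes, where 36.5% of all genes rose in Aclyf/f and 30.4% in Acly-/- cells. Pdha1, Pdhb, Pdhx and Dlat were lower in Acly-/- adipocytes, by 1.37-fold for Pdha1 to 3.00-fold for Pdhb, where 29.2% of all genes were lower. Pdhb stood at 59.1, 64.8 and 57.5 FPKM in the Aclyf/f preadipocyte libraries, 68.6, 71.9 and 65.1 in their Acly-/- counterparts, 585, 575 and 599 in the Aclyf/f adipocyte libraries and 201, 184 and 201 in those of Acly-/- adipocytes. The 3 Acly-/- adipocyte libraries lay between preadipocytes and Aclyf/f adipocytes, with no overlap on either side. The difference of Pdhb from Aclyf/f adipocytes was -1.58 ± 0.069 on the log2 scale (adjusted p = 9.23e-10), and in preadipocytes it was 0.18 ± 0.069 (adjusted p = 0.0521), which passed the threshold in 4 of 22 alternative settings, at adjusted p down to 0.0324. Dld, which also serves the oxoglutarate dehydrogenase complex, was at 103 ± 8.79 FPKM in Aclyf/f and 91.2 ± 9.25 in Acly-/- adipocytes and was not called (95% interval of the log2 difference -0.41 to 0.07).

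Pdha1 and Pdhb encode the 2 chains of a single heterotetramer, yet their transcripts did not move in step. Pdhb over Pdha1 was 0.651, 0.778 and 0.645 in the Aclyf/f preadipocyte libraries, 0.783, 0.816 and 0.800 in those of Acly-/- cells, 3.10, 2.93 and 3.03 in the Aclyf/f adipocyte libraries and 1.38, 1.35 and 1.40 in those of Acly-/- cells. The 4 groups did not overlap, and Acly-/- adipocytes lay between both kinds of preadipocyte and Aclyf/f adipocytes. Pcx over Pdhb was 1.17, 1.07 and 1.03 in Aclyf/f adipocytes and 1.18, 1.24 and 1.05 in Acly-/- adipocytes, so the libraries of the 2 genotypes overlapped. With 3 libraries against 3, an exact permutation test cannot go below 0.1, and the ratios are given without a test. The deposited row of Pdha1 spans 149.9 kb against 16.2 kb in RefSeq, and which transcripts it counted is not known here. Exons of Pdha1 share 16.2% of their bases with antisense Map3k15, which was at most 0.163 FPKM.

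**Figure D3:**
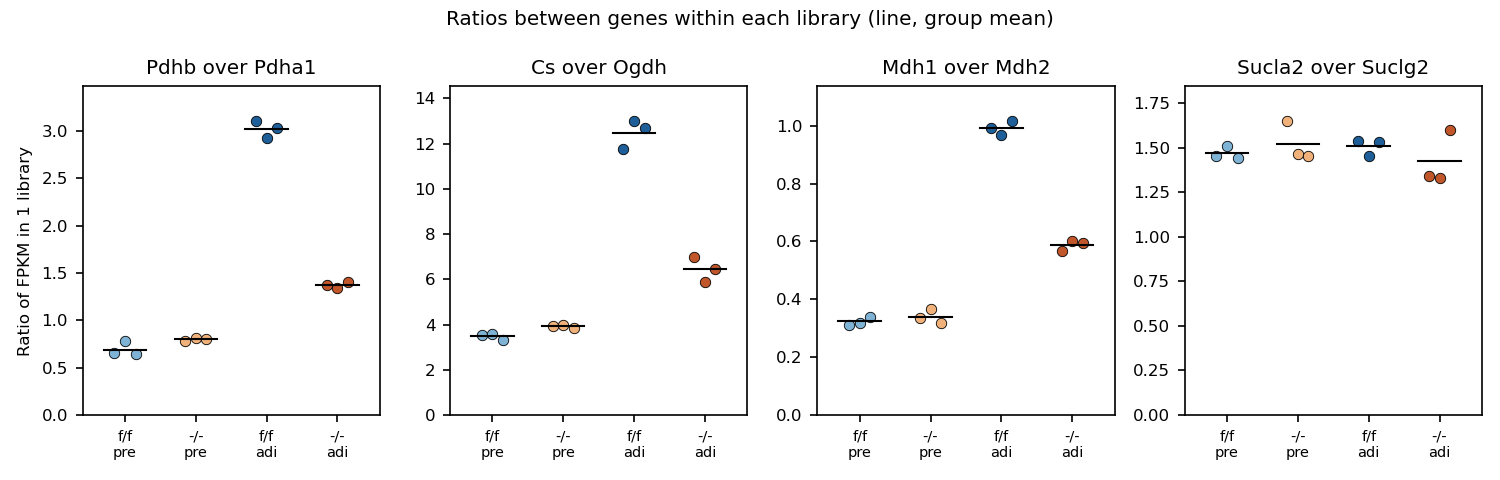
Ratio of FPKM between paired genes in each library, by group (f/f, Aclyf/f; -/-, Acly-/-; pre, preadipocyte; adi, adipocyte), with a line at the group mean. Pdhb over Pdha1, Cs over Ogdh and Mdh1 over Mdh2 are highest in Aclyf/f adipocytes at means of 3.02, 12.5 and 0.991, while Sucla2 over Suclg2 stays between 1.33 and 1.65 in all 12 libraries.

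The kinases that phosphorylate and inactivate the complex split into different responses. Pdk1 stood at 15.5, 13.9 and 13.98 FPKM in the Aclyf/f preadipocyte libraries, 32.6, 38.1 and 31.3 in their Acly-/- counterparts, 47.4, 54.3 and 55.9 in the Aclyf/f adipocyte libraries and 16.4, 13.9 and 16.7 in those of Acly-/- adipocytes. Pdk1 was thus high in Acly-/- preadipocytes and Aclyf/f adipocytes and low in the other groups, and no library crossed the gap. It was 2.35-fold higher in Acly-/- preadipocytes (log2 fold change 1.18 ± 0.097 SE, adjusted p = 6.64e-07) and 3.35-fold lower in Acly-/- adipocytes (-1.68 ± 0.097, adjusted p = 1.25e-08). With differentiation it rose 3.64-fold in Aclyf/f and fell 2.17-fold in Acly-/- cells, a difference of -2.86 ± 0.14 on the log2 scale (adjusted p = 5.1e-09). The deposited row of Pdk1 spans 515 kb (chr2:71389260-71903858), against 30.6 kb in RefSeq, and the sources used here do not say which transcripts it counted.

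Pdk4, the kinase known for its induction in fasting and by fatty acids, was higher without Acly at both stages. Pdk4 stood at 10.2, 9.30 and 9.22 FPKM in the Aclyf/f preadipocyte libraries, 20.1, 21.8 and 21.8 in their Acly-/- counterparts, 24.4, 28.7 and 28.3 in the Aclyf/f adipocyte libraries and 40.2, 40.1 and 44.8 in those of Acly-/- adipocytes. The 4 groups did not overlap, and Acly-/- adipocytes held the most. The log2 difference was 1.07 ± 0.081 in preadipocytes (adjusted p = 2.95e-07) and 0.60 ± 0.081 in adipocytes (adjusted p = 3.31e-05), and its rise with differentiation was smaller in Acly-/- cells (-0.47 ± 0.12, adjusted p = 0.00447).

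Pdk2, a kinase of broad tissue distribution, had the same calls as Pdha1, Pdhb, Pdhx and Dlat in every comparison. Its gain in mean FPKM in Acly-/- cells was 19.8% of that in Aclyf/f cells. For these subunits it was 24.1% (Pdhb) to 52.9% (Pdha1). Pdk2 stood at 4.69, 6.88 and 5.12 FPKM in the Aclyf/f preadipocyte libraries, 3.96, 4.18 and 4.42 in their Acly-/- counterparts, 19.9, 16.4 and 15.6 in the Aclyf/f adipocyte libraries and 7.52, 6.202 and 5.83 in those of Acly-/- adipocytes. Aclyf/f adipocytes stood apart, and the Acly-/- adipocyte libraries overlapped those of Aclyf/f preadipocytes. The adipocyte difference was -1.28 ± 0.13 (adjusted p = 2.4e-06), while the preadipocyte difference of -0.33 ± 0.13 was not called (adjusted p = 0.0588). The preadipocyte libraries did not overlap, and the difference was called in 3 alternative settings, without replicate 1 of Aclyf/f preadipocytes or of Aclyf/f adipocytes and with the same FPKM sum (adjusted p from 0.0231 to 0.0462).

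Pdk3, the remaining kinase, went down with differentiation. Pdk3 stood at 17.5, 21.3 and 19.2 FPKM in the Aclyf/f preadipocyte libraries, 18.7, 16.7 and 16.0 in their Acly-/- counterparts, 11.5, 12.3 and 12.2 in the Aclyf/f adipocyte libraries and 9.82, 9.83 and 9.31 in those of Acly-/- adipocytes. Preadipocytes of both genotypes lay above all adipocytes, and Acly-/- adipocytes lay lowest (-0.29 ± 0.085 against Aclyf/f adipocytes, adjusted p = 0.0104). The fall was called in Aclyf/f (-0.64 ± 0.085) and in Acly-/- cells (-0.77 ± 0.085), with a difference of -0.13 (95% interval -0.39 to 0.13, adjusted p = 0.392). Summed over the 4 kinases, FPKM went from 48.9 ± 2.12 on day 0 to 109 ± 5.04 on day 4 in Aclyf/f cells and from 76.6 ± 3.68 to 73.6 ± 3.38 in Acly-/- cells (SD, n = 3). The leading kinase changed with the group. Pdk3 made up 39.5% of the sum in Aclyf/f preadipocytes, Pdk1 44.3% in Acly-/- preadipocytes and 48.1% in Aclyf/f adipocytes, and Pdk4 56.7% in Acly-/- adipocytes.

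The 2 phosphatases that reactivate the complex moved in opposite directions in adipocytes. Pdp1 stood at 11.3, 12.7 and 12.7 FPKM in the Aclyf/f preadipocyte libraries, 9.92, 12.4 and 8.90 in their Acly-/- counterparts, 11.1, 11.8 and 11.98 in the Aclyf/f adipocyte libraries and 34.4, 37.9 and 31.4 in those of Acly-/- adipocytes. In preadipocytes the genotypes were not called apart for Pdp1 (adjusted p = 0.110), except without Acly-/- preadipocyte replicate 2 (adjusted p = 0.0137). Acly-/- adipocytes stood alone, 2.98-fold above Aclyf/f adipocytes (log2 fold change 1.49 ± 0.11, adjusted p = 8.66e-08), and the other 3 groups overlapped. Pdp2 stood at 2.91, 3.201 and 3.89 FPKM in the Aclyf/f preadipocyte libraries, 5.09, 5.03 and 6.39 in their Acly-/- counterparts, 11.2, 11.7 and 11.1 in the Aclyf/f adipocyte libraries and 7.56, 8.17 and 6.68 in those of Acly-/- adipocytes. Pdp2 was higher in Acly-/- than in Aclyf/f preadipocytes (0.59 ± 0.11, adjusted p = 0.000742) and lower in Acly-/- than in Aclyf/f adipocytes (-0.55 ± 0.11, adjusted p = 0.000845). The difference between the genotypes' changes was 1.72 ± 0.15 for Pdp1 and -1.13 ± 0.15 for Pdp2 (adjusted p = 1.02e-06 and 4.94e-05). Pdp1 over Pdp2 went from 3.70 ± 0.392 on day 0 to 1.03 ± 0.0443 on day 4 in Aclyf/f cells and from 1.93 ± 0.534 to 4.63 ± 0.0746 in Acly-/- cells, and the sum of the pair went from 22.9 ± 0.614 to 42.0 ± 3.98 FPKM between the adipocyte groups.

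**Figure D4:**
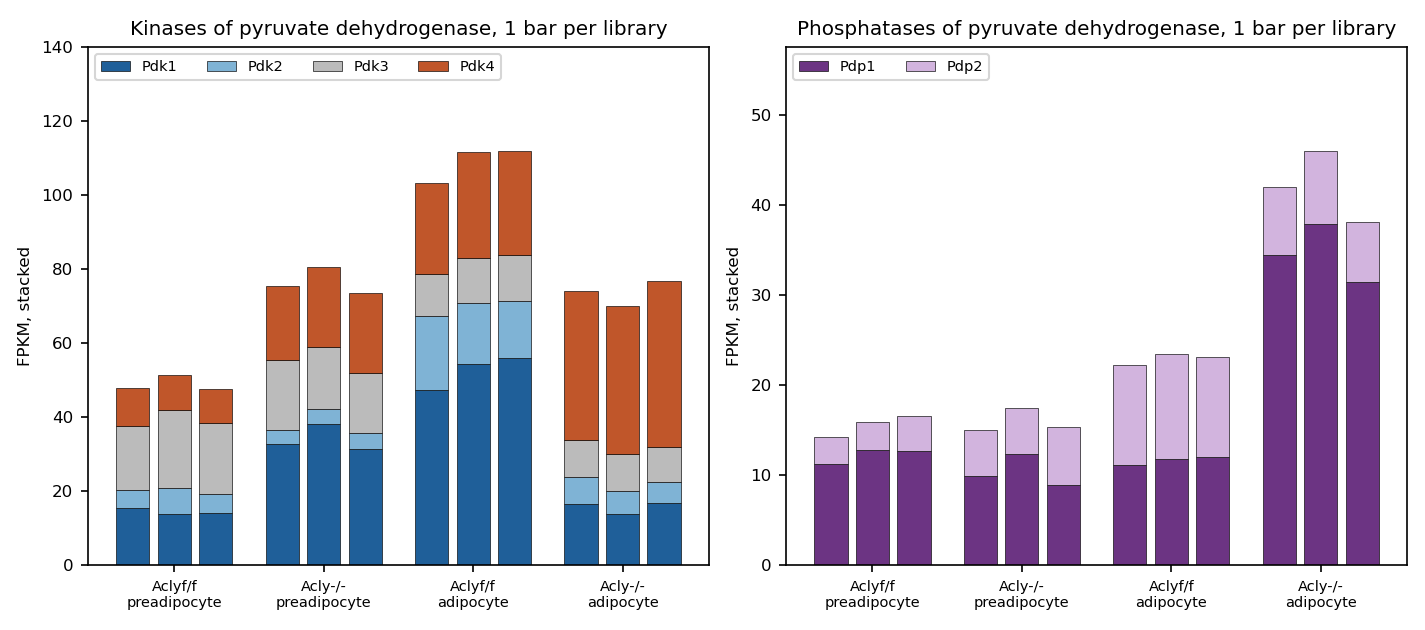
Stacked FPKM of the 4 kinases (left) and the 2 phosphatases (right) of pyruvate dehydrogenase, 1 bar for each of the 12 libraries. The orange Pdk4 segment is the largest in the 3 Acly-/- adipocyte libraries, at 54.4% to 58.5% of the kinase sum, and the dark Pdp1 segment is 31.4 FPKM or more there and 12.7 FPKM or less in every other library.

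Pcx, which makes oxaloacetate from pyruvate, had the largest change with differentiation of the 32 genes. Pcx stood at 13.2, 14.05 and 12.6 FPKM in the Aclyf/f preadipocyte libraries, 17.2, 14.8 and 19.8 in their Acly-/- counterparts, 684, 616 and 618 in the Aclyf/f adipocyte libraries and 237, 228 and 210.3 in those of Acly-/- adipocytes. It was below the set's median of 40.4 FPKM in Aclyf/f preadipocytes and had the highest mean of the 32 genes in Aclyf/f adipocytes. The rise was 48.1-fold in Aclyf/f cells (log2 fold change 5.49 ± 0.094, adjusted p = 1.31e-14) and 13.1-fold in Acly-/- cells (3.64 ± 0.094, adjusted p = 1.64e-12), a difference of -1.85 ± 0.13 (adjusted p = 1.68e-07). Pcx was called higher in Acly-/- preadipocytes (0.35 ± 0.094, adjusted p = 0.00971) and 2.84-fold lower in Acly-/- adipocytes (-1.50 ± 0.094, adjusted p = 2.67e-08). The gene lies at chr19:4510472-4621752 (mm10), and the FPKM values are per gene and do not separate its start sites.

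The upstream sequences of 3 genes are shown because Pcx changed most and because Pcx, Pdk2 and Pdp2 hold, outside annotated exons, the E-box letters CACGTG, which bHLH factors such as USF and MYC can bind. They come from RefSeq windows on GRCm38.p6, which run from 250 bases before to 50 bases after a start site, and are written on the strand of the gene with CACGTG in capitals. For Pcx the 250 bases before 2 RefSeq starts are given, at chr19:4510222-4510471 and chr19:4594069-4594318, both on the plus strand, and only the first holds the letters, 248 bases before the start. For Pdk2 (chr11:95041452-95041537, minus strand) and Pdp2 (chr8:104591222-104591298, plus strand) the letters lie 126 and 219 bases before the start.
Pcx first start: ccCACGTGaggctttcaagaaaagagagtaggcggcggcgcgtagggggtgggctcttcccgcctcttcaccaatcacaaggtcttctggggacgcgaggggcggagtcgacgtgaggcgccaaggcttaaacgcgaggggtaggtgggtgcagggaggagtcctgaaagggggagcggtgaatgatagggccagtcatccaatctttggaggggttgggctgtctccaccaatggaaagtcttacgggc
Pcx second start: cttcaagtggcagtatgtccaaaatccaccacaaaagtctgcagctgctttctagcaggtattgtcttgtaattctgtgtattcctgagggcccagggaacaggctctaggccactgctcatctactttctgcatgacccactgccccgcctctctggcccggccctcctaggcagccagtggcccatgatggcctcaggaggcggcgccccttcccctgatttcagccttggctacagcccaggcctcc
Pdk2: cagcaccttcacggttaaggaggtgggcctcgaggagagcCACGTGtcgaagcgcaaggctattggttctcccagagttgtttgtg
Pdp2: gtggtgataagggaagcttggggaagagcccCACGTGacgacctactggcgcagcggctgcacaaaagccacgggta
Windows were found for 29 of the 32 genes and for 8957 of all genes tested, and 5 sets of letters were searched on both strands. CACGTG was in windows of 4 of the 29, Ogdh, Pcx, Pdk2 and Pdp2 (13.8%, against 12.1% of all genes with a window). AAGGTCA, a site of the ERR receptors, was in 2 (6.9% against 3.71%), CCGGAAG, an ETS and GABP site, in 6 (20.7% against 21%), and TGCGCA, the core of an NRF1 site, in 6 (20.7% against 16.5%). The PPAR element AGGTCANAGGTCA, whose repeated unit overlaps AAGGTCA, was in 0 (0.0447% of all genes). These shares describe the letters in the windows only.

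All 18 genes of the cycle enzymes and their cytosolic counterparts rose with differentiation in both genotypes, where 36.5% of all genes rose in Aclyf/f and 30.4% in Acly-/- cells. Mdh1 and Cs had the largest rises of the 18 in Aclyf/f cells. In Acly-/- adipocytes 14 of the 18 were lower than in Aclyf/f adipocytes and none was higher (limma), where 29.2% of all genes were lower and 25.6% higher. Cs stood at 80.2, 81.8 and 79.8 FPKM in the Aclyf/f preadipocyte libraries, 87.7, 81.8 and 86.7 in their Acly-/- counterparts, 426, 430.1 and 430.0 in the Aclyf/f adipocyte libraries and 184, 174 and 177 in those of Acly-/- adipocytes. The adipocyte groups lay far apart. Preadipocytes of the 2 genotypes were not called apart (0.08 ± 0.057, adjusted p = 0.27), and Acly-/- adipocytes were 2.40-fold lower than Aclyf/f adipocytes (-1.26 ± 0.057, adjusted p = 1.29e-09). Mdh1 stood at 59.5, 56.5 and 56.9 FPKM in the Aclyf/f preadipocyte libraries, 64.6, 68.2 and 70.9 in their Acly-/- counterparts, 339, 314 and 319 in the Aclyf/f adipocyte libraries and 162, 162 and 179.8 in those of Acly-/- adipocytes. Mdh1 was 1.18-fold higher in Acly-/- preadipocytes (0.23 ± 0.067, adjusted p = 0.0132), a call that rescaling to the same FPKM sum ended (adjusted p = 0.110), and 1.93-fold lower in Acly-/- adipocytes (-0.94 ± 0.067, adjusted p = 7.89e-08). Mdh2, the mitochondrial malate dehydrogenase, was the most abundant gene of the set in every group but Aclyf/f adipocytes. Its means of 327 ± 14.02 FPKM in Aclyf/f and 286 ± 16.0 in Acly-/- adipocytes were not called apart (-0.19 ± 0.082, adjusted p = 0.0628). The adipocyte libraries of the 2 genotypes did not overlap for Mdh2, and the difference was called in 5 alternative settings, among them a fit of only the groups compared (adjusted p from 0.00330 to 0.0480). Mdh1 over Mdh2 accordingly went from 0.323 ± 0.0149 to 0.991 ± 0.0244 with differentiation in Aclyf/f cells and from 0.340 ± 0.0253 to 0.587 ± 0.0168 in Acly-/- cells.

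The aconitase and the isocitrate dehydrogenases differed among themselves. Aco1 stood at 17.8, 19.1 and 17.7 FPKM in the Aclyf/f preadipocyte libraries, 24.5, 22.8 and 24.2 in their Acly-/- counterparts, 86.1, 87.5 and 91.5 in the Aclyf/f adipocyte libraries and 47.4, 43.8 and 44.6 in those of Acly-/- adipocytes. Aco1, the cytosolic aconitase that also acts as the iron regulatory protein IRP1, was higher in Acly-/- preadipocytes (0.37 ± 0.064, adjusted p = 0.000456) and lower in Acly-/- adipocytes (-0.95 ± 0.064, adjusted p = 5.63e-08), with no overlap at either stage. Idh2 stood at 111, 114 and 109 FPKM in the Aclyf/f preadipocyte libraries, 61.1, 62.4 and 76.7 in their Acly-/- counterparts, 198, 185 and 174 in the Aclyf/f adipocyte libraries and 101, 110.3 and 116 in those of Acly-/- adipocytes. Idh2, the NADP-dependent mitochondrial enzyme, was the only one of the 32 called lower at both stages, by -0.74 ± 0.089 in preadipocytes and -0.77 ± 0.089 in adipocytes (adjusted p = 2.14e-05 and 8.87e-06). It rose 1.67-fold and 1.63-fold with differentiation, and the difference of the changes was -0.03 (95% interval -0.30 to 0.24). The NAD-dependent enzyme is encoded by Idh3a, Idh3b and Idh3g, and none was called in preadipocytes, where 42.2% of all genes were. All were lower in Acly-/- adipocytes, by -0.65, -0.60 and -0.42 in that order, where 29.2% of all genes were lower. The deposited span of Idh3b, 10.0 kb, exceeds the 5.14 kb of RefSeq.

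**Figure D5:**
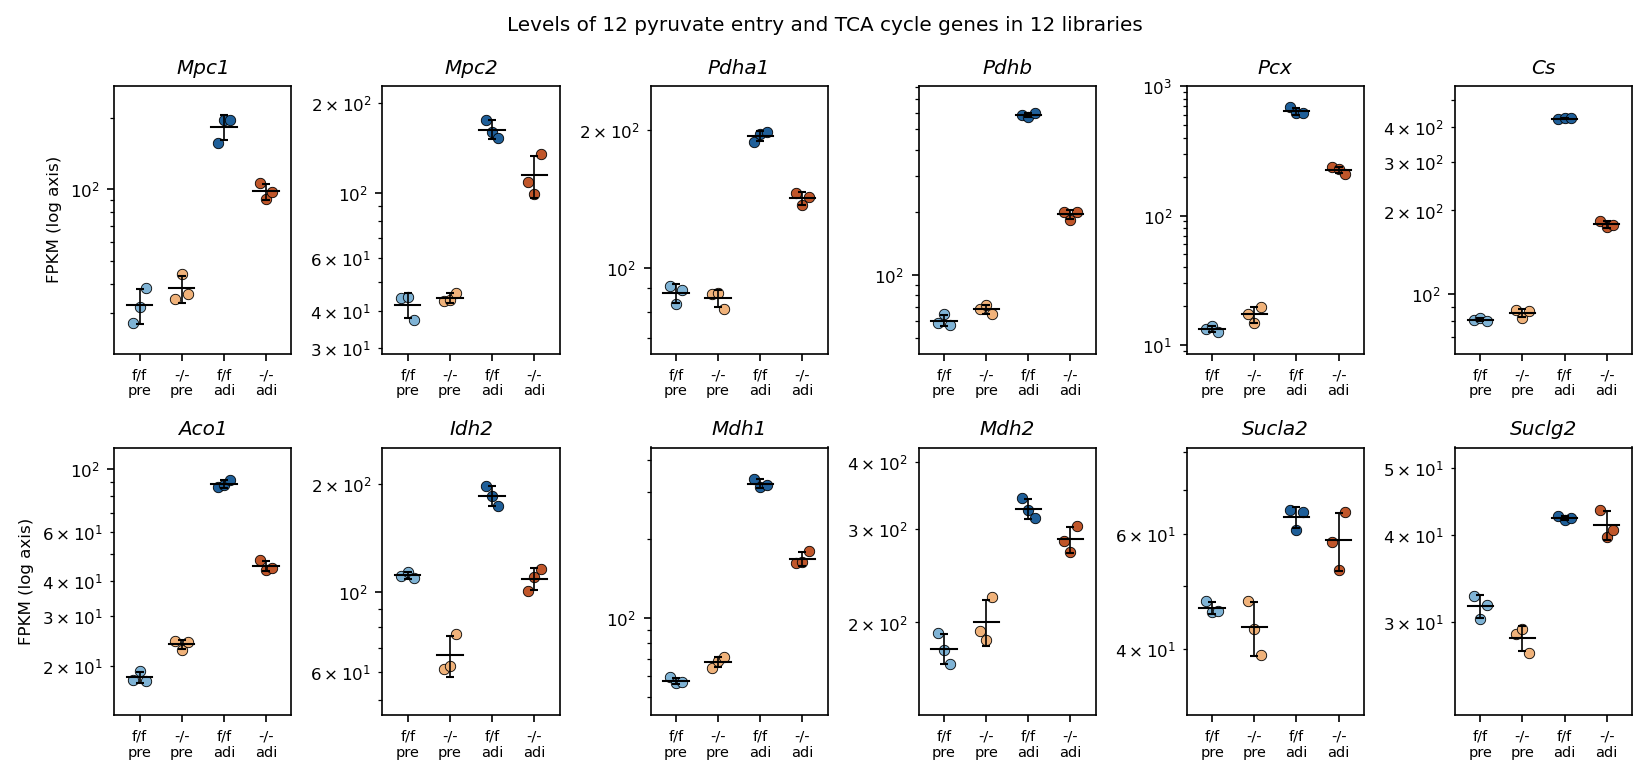
FPKM (log axis) of 12 of the genes in each of the 12 libraries, by group (f/f, Aclyf/f; -/-, Acly-/-; pre, preadipocyte; adi, adipocyte), with the group mean and SD. Pdhb, Pcx and Cs show wide gaps between the 2 adipocyte groups, Idh2 is lower without Acly at both stages, and the adipocyte groups overlap for Sucla2 and Suclg2.

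From oxoglutarate to malate, the adipocyte genotype differences ran from -0.56 for Sdhb to -0.03 for Suclg2 on the log2 scale. Ogdh encodes the decarboxylase and Dlst the succinyltransferase of the oxoglutarate dehydrogenase complex. Ogdh was at 34.4 ± 1.60 FPKM in Aclyf/f and 27.8 ± 1.64 in Acly-/- adipocytes (-0.30 ± 0.07, adjusted p = 0.00263), and Dlst at 43.3 ± 0.599 and 40.3 ± 1.04, not called (95% interval -0.24 to 0.04). Cs over Ogdh went from 3.49 ± 0.133 on day 0 to 12.5 ± 0.630 on day 4 in Aclyf/f cells and from 3.93 ± 0.0691 to 6.44 ± 0.546 in Acly-/- cells.

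Succinyl-CoA ligase pairs the shared alpha subunit Suclg1 with an ATP-forming (Sucla2) or a GTP-forming (Suclg2) beta subunit. Suclg1 stood at 64.0, 58.6 and 57.2 FPKM in the Aclyf/f preadipocyte libraries, 54.2, 59.0 and 56.4 in their Acly-/- counterparts, 139, 130.5 and 124 in the Aclyf/f adipocyte libraries and 92.0, 94.2 and 101 in those of Acly-/- adipocytes. Sucla2 stood at 47.5, 45.6 and 45.8 FPKM in the Aclyf/f preadipocyte libraries, 47.4, 42.9 and 39.3 in their Acly-/- counterparts, 65.3, 61.0 and 64.8 in the Aclyf/f adipocyte libraries and 58.4, 52.9 and 64.9 in those of Acly-/- adipocytes. Suclg2 stood at 32.7, 30.3 and 31.7 FPKM in the Aclyf/f preadipocyte libraries, 28.8, 29.3 and 27.1 in their Acly-/- counterparts, 42.5, 42.1 and 42.3 in the Aclyf/f adipocyte libraries and 43.5, 39.8 and 40.6 in those of Acly-/- adipocytes. For the 2 beta subunits the adipocyte groups overlapped and the intervals of the log2 difference ran from -0.30 to 0.06 and from -0.17 to 0.10. For Suclg1 the adipocyte groups lay apart (-0.45 ± 0.071, adjusted p = 0.000118), and its change with differentiation was smaller in Acly-/- cells (-0.37 ± 0.1, adjusted p = 0.00771). Sucla2 over Suclg2 had group means of 1.47 on day 0 and 1.51 on day 4 in Aclyf/f cells and of 1.52 and 1.42 in Acly-/- cells.

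Succinate dehydrogenase, which is also complex II of the respiratory chain, is encoded by Sdha, Sdhb, Sdhc and Sdhd, and fumarase by Fh1. All 5 rose in both genotypes and were lower in Acly-/- adipocytes, from -0.27 for Sdhd to -0.56 for Sdhb on the log2 scale. Of all genes tested, 36.5% rose in Aclyf/f and 30.4% in Acly-/- cells, and 29.2% were lower in Acly-/- adipocytes. The call for Sdhd (adjusted p = 0.0318) was lost when any of 4 adipocyte libraries was left out, replicates 1 and 2 of either genotype, and with no filter on low values (adjusted p up to 0.131). In preadipocytes Sdha and Sdhb were called higher in Acly-/- cells (0.20 ± 0.061 and 0.24 ± 0.074, adjusted p = 0.0205 and 0.0179). Both calls were lost without Aclyf/f preadipocyte replicate 1 and with every library rescaled to the same FPKM sum. Sdha also lost its call without Acly-/- preadipocyte replicate 3 and under quantile normalization, and Sdhb without Acly-/- preadipocyte replicate 2. Over these settings the adjusted p reached 0.258 for Sdha and 0.156 for Sdhb. The interval of the genotype difference in preadipocytes was -0.09 to 0.26 for Sdhc, -0.22 to 0.20 for Sdhd and -0.07 to 0.25 for Fh1.

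Read over all comparisons, 14 genes were called lower in Acly-/- cells on day 4 and were not called on day 0, while rising in both genotypes, by less without Acly. They were Mpc1, Mpc2, Pdha1, Pdhb, Pdhx, Dlat, Pdk2, Cs, the 3 Idh3 subunits, Suclg1, Sdhc and Fh1. Of these, Pdhb and Pdk2 were called on day 0 in the alternative settings given above, Mpc1 without Aclyf/f preadipocyte replicate 3 (adjusted p = 0.0463) and Idh3g without Acly-/- preadipocyte replicate 2 (adjusted p = 0.0339). Another 6, Pdp2, Pcx, Aco1, Sdha, Sdhb and Mdh1, were higher in Acly-/- preadipocytes and lower in Acly-/- adipocytes. Of these 6, Mdh1, Sdha and Sdhb lost the preadipocyte call with every library rescaled to the same FPKM sum. Sdha and Sdhb also lost it in the other settings given above. Dld, Dlst, Sucla2 and Suclg2 rose in both genotypes and were called in no genotype comparison, apart from Suclg2 in preadipocytes with no filter on low values (adjusted p = 0.0360). The share of all genes tested that had each of these joint patterns was not computed. Whether the patterns were more frequent in this set than among all genes was therefore not tested, and the counts only describe the set.

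Genes that attach lipoate, assemble the enzymes or import their cofactors were set beside the 32. In adipocytes 5 of 12 were lower in Acly-/- cells (41.7%, against 29.2% of all genes) and 2 higher (16.7% against 25.6%), with a median of -0.27. Pdpr, the regulatory subunit of the phosphatase, was lower (-0.73), and Iscu, the iron-sulphur scaffold, higher (0.50). In preadipocytes 2 of the 12, Lipt1 and Sdhaf2, were higher, a share of 16.7% where 19.7% of all genes were, and none was lower, where 22.4% were.

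Genes for exits from and entries to the cycle were called at both stages. Of 14 tested, 6 were higher in Acly-/- preadipocytes (42.9%, against 19.7% of all genes) and 3 lower (21.4% against 22.4%), with a median of 0.22. The largest differences were rises, in Pck2, mitochondrial phosphoenolpyruvate carboxykinase (1.38), Gpt2, an alanine aminotransferase (1.05), Ldha, lactate dehydrogenase A (0.86), and Slc25a1, the citrate carrier (0.78). In adipocytes 9 were lower (64.3%, against 29.2% of all genes) and 4 higher (28.6% against 25.6%), with a median of -0.34. Slc25a10, the dicarboxylate carrier, went from 196 ± 7.002 FPKM in Aclyf/f to 39.9 ± 1.04 in Acly-/- adipocytes, and Slc25a1 from 483 ± 28.8 to 139 ± 7.60 (adjusted p = 1.03e-09 and 5.95e-08). Ldha went from 427 ± 18.9 to 1114 ± 24.6 FPKM with differentiation in Aclyf/f cells and from 776 ± 43.0 to 399.6 ± 45.1 in Acly-/- cells, so that, as for Pdk1, Aclyf/f adipocytes held the most and Acly-/- preadipocytes came next. Me3 and Acss1 of this list were under the filter on low values.

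Among 6 tested regulators of mitochondrial genes, none was called in preadipocytes, where 42.2% of all genes were. In Acly-/- adipocytes Ppargc1b, a PGC-1 coactivator, was at 1.16 ± 0.107 FPKM against 3.45 ± 0.421 in Aclyf/f adipocytes (-1.04 ± 0.098, adjusted p = 1.28e-06), Nrf1 and Esrra were lower (-0.59 and -0.44), and Pprc1 was higher (0.32). Ppargc1a, at most 0.122 ± 0.0194 FPKM in the mean of a group, was not tested. Of 26 respiratory chain genes 16 were lower and 1 higher in Acly-/- adipocytes (median -0.38), and of 21 fatty acid oxidation genes 19 were lower and 1 higher (median -0.73), where 29.2% of all genes were lower. Whether these lists differed from the 32 genes was not tested.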

How the data were processed

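RNA of 12 libraries was measured as gene-level FPKM, deposited by the authors in 1 table whose values are floored at 0.01. Per the submitters' processing notes, bcl2fastq, Bowtie2 2.2.6 and Cufflinks 2.2.1 were used with mm10. The sources used here do not give the annotation, the strand setting or any further filter. Depth could only be estimated from the smallest value steps, with transcript lengths from GENCODE M21. It limits the precision of scarce genes, and unstranded counting could merge reads of antisense neighbours.

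A gene was tested if its FPKM reached 1 in 3 or more libraries (11777 of 24341, leaving 12564 untested), 1 was added to each value, and log2 values were fitted with limma 3.58.1 in R 4.3.3 (means of the 4 groups, eBayes with a trend). Each of 5 contrasts had its p-values adjusted over all these genes (Benjamini-Hochberg) with calls under 0.05, and the fit was tested on simulated data. Fold changes on this scale understate those of scarce genes, and the folds given beside them are ratios of mean FPKM. Plots used matplotlib 3.10.9.

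All 32 genes are named. Values in every library are given for the 5 genes with the largest called change in each contrast, and for the kinases, phosphatases and succinyl-CoA ligase subunits. Other lists give up to 4 genes of largest change, of which some are not reported here. The genes, lists and markers were chosen with earlier results of these data known, and counts over them are descriptions. Snord12 and the lists' uncalled genes were named after their values were seen.

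Replicate numbers are shared by the groups. Same-numbered libraries deviated from their group means with correlations of -0.10, -0.06 and -0.19 for the genotypes in preadipocytes, -0.29, -0.18 and -0.16 in adipocytes, 0.13, -0.03 and 0.09 for the stages in Aclyf/f cells and 0.12, 0.15 and 0.12 in Acly-/- cells. Only Acly-/- cells passed a limit of 0.1 in every pair, and there differently numbered libraries ran from -0.15 to 0.02. Differently numbered libraries reached 0.31 between the genotypes in adipocytes and 0.20 in preadipocytes, so the limit cannot show that the numbers paired samples. The fit with a replicate block is given as an alternative. Others were other pseudocounts, filters and scalings, a fit without the trend, only the groups compared, and leaving out each library.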

Additional observations from a re-analysis of the deposited data

Results flagged for a closer look

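The change from preadipocyte to adipocyte differed between Acly-/- and Aclyf/f cells for 24 of the 32 genes, by limma's test of the difference itself (adjusted p under 0.05 over 11777 genes, of which 50.2% were called). Values below are the log2 change in Acly-/- cells minus that in Aclyf/f cells, with 3 libraries in each group.

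Among the genes of pyruvate entry, the difference was -1.12 for Mpc1, -0.60 for Mpc2, -0.42 for Pdha1, -1.76 for Pdhb, -0.70 for Pdhx, -0.87 for Dlat and -1.85 for Pcx. Among the regulators of the dehydrogenase it was -2.86 for Pdk1, -0.96 for Pdk2, -0.47 for Pdk4 and -1.13 for Pdp2, while Pdp1, at 1.72, was the only one of the 24 above 0.

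Among the cycle genes it was -1.34 for Cs, -1.32 for Aco1, -0.77 for Idh3a, -0.49 for Idh3b, -0.59 for Idh3g and -0.37 for Suclg1. It was -0.49 for Sdha, -0.80 for Sdhb, -0.44 for Sdhc, -0.44 for Fh1, -1.18 for Mdh1 and -0.36 for Mdh2. Pdk1 was the gene whose direction turned, with a rise in Aclyf/f and a fall in Acly-/- cells. The call for Mdh2 was the weakest (adjusted p = 0.0217).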

How the results depend on the processing

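No call on the 32 genes changed direction in any of the 21 to 23 alternatives run per comparison. Calls held in every alternative for 6 of 9 genes in the preadipocyte genotype comparison (lost in some for Mdh1, Sdha and Sdhb), 26 of 27 in adipocytes (Sdhd), 31 of 31 and 32 of 32 for differentiation in Aclyf/f and Acly-/- cells, and 23 of 24 for the difference between genotypes (Mdh2, adjusted p up to 0.0582 without Aclyf/f preadipocyte replicate 3, without Acly-/- adipocyte replicate 2 or with no filter). In preadipocytes the number of the 32 genes lower in Acly-/- cells was 1. It was 2 with no filter on low values, 2 with every library rescaled to the same FPKM sum, and 1 to 2 when single libraries were left out, moving to 2 without Aclyf/f preadipocyte replicate 1, Acly-/- preadipocyte replicate 2 or Aclyf/f adipocyte replicate 1. The number higher was 8, and 5 with the same FPKM sum. In other settings, given above, Sdha and Sdhb also lost their calls, and Pdhb, Mpc1 and Idh3g each gained one in some. The causes were not tested.

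With a replicate block, the genes called were 4573 against 4966 for the genotypes in preadipocytes, 6125 against 6452 in adipocytes, 8352 against 8537 for differentiation in Aclyf/f cells, 6954 against 7232 in Acly-/- cells and 5516 against 5908 for the difference. The block changed no call on the 32 genes. A fit of the Acly-/- groups alone with the replicate block, chosen after seeing the data, called 7010. Fitting only the groups compared gives nothing else for the difference between genotypes, which uses all groups. With 3 libraries a group, the standard error of a genotype difference was 0.13 in Pdk2, the scarcest of the 32 genes in estimated fragments, and 0.057 in Cs. It was also 0.13 in Mpc1, with group means of 32.5 FPKM or more, and 0.071 in Pdhx, with group means from 8.42 to 29.4 FPKM. The part of depth in this was not tested.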

Other observations

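Acetyl-CoA also reaches the cycle from fatty acid oxidation, whose genes differed already in preadipocytes. Of 21 tested, 12 were lower and 1 higher in Acly-/- preadipocytes (median -0.24), where 22.4% of all genes were lower. Among them were Hsd17b4, the peroxisomal bifunctional enzyme (-0.73), Etfdh, which passes electrons to ubiquinone (-0.49), and Etfb, an electron transfer flavoprotein subunit (-0.43). Hsd17b4 and Etfdh differed by similar amounts in adipocytes (-0.73 and -0.49, both called lower), as Idh2 did among the cycle genes. Of 26 respiratory chain genes, 7 were higher in Acly-/- preadipocytes (26.9%, against 19.7% of all genes) and none lower (22.4% of all genes), with a median of 0.04. With differentiation 25 of the 26 rose in Aclyf/f and 26 in Acly-/- cells, where 36.5% and 30.4% of all genes rose.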
